A study of Mus musculus with 2 samples.

Results

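The genes described here are 10 members of the Nodal pathway and of the primed pluripotent state, *Nodal*, *Tdgf1*, *Lefty1*, *Lefty2*, *Smad7*, *Id1*, *Otx2*, *Pou3f1*, *Fgf5* and *T*, out of 37310 genes in GENCODE release M1, the annotation of the mm9 mouse genome. They were chosen by name with earlier results of these data known, as were the gene lists used below. Each member was placed on mm9 by that annotation. Their reads were counted in the non-polyadenylated (NPA) RNA fraction, which is what remains of total RNA once RNA with a poly(A) tail and ribosomal RNA have been depleted. The authors state that such fractions are enriched and not exclusive. They propose that NPA signal over exons of protein-coding genes other than histone genes comes from incomplete or partly degraded mRNA. The part of carry-over or degradation in the levels and ratios below was not tested. Strand-specific SOLiD libraries were sequenced from embryonic stem cells (ESCs) and from neuronal progenitor cells (NPCs) derived from them, with 1 library for each cell type. Both cell types belong to R1, a mouse ESC line. The ESCs, at passage 18, were grown with leukemia inhibitory factor on a feeder layer of mouse embryonic fibroblasts treated with Mitomycin C. The NPCs were collected at day 7 of differentiation, of which the first 4 days were spent without that factor as embryoid bodies and the rest on poly-L-ornithine and fibronectin.

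The library of ESCs held 4271306 placed reads and that of NPCs 4399729, so that a single read was worth 0.234 and 0.227 RPM, the reads of a gene scaled to a common library total. A gene's count is the number of reads on its strand that overlapped its exons by at least 1 base. Because there was 1 library per cell type, the differences have no replicate check, no test between cell types was made, and every ratio compares these 2 libraries. Intervals are 95% intervals and cover counting error only. PCR copies cannot be told from separate molecules, and each read was treated as a separate molecule. Where reads are copies, the intervals are too narrow. They are exact Poisson intervals for counts and levels, Clopper-Pearson intervals for shares and conditional binomial intervals for ratios. In RNA from a mixed culture, fewer cells of a type and less RNA per cell cannot be told apart.

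Nodal is a secreted ligand of the TGF-β superfamily. It binds activin receptors together with the coreceptor Cripto, the product of *Tdgf1*, and signals through the transcription factors Smad2 and Smad3 with Smad4. Among its targets are *Nodal* itself and *Lefty1* and *Lefty2*, whose secreted products block the ligand and its coreceptor, while *Smad7* encodes an intracellular inhibitor of the receptors and *Id1* is a classical target of the related BMP pathway. Mouse ESCs make Nodal themselves. When they leave the naive state for the primed state, which resembles the epiblast after implantation, *Otx2*, *Pou3f1* and *Fgf5* are known to be induced, and *T* (brachyury) marks the primitive streak and early mesoderm that Nodal helps to form.

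Before the members are compared, the cell type labels were set against marker genes. Of 9 neural progenitor markers that were measured, 6 had under 10 reads in the pooled libraries, and the summed level of the list was 16.4 RPM in ESCs and 35.9 RPM in NPCs. Most of those reads belonged to *Nes*, the neural filament gene nestin, with 66 and 121 reads. Of the 3 markers with at least 10 pooled reads, *Nes* was within 2-fold. *Pax6* (1 and 12 reads) and *Pax3* (0 and 13) were more than 2-fold higher in NPCs, and the median log2 ratio was 2.66. *Olig2* had 0 reads in both libraries. Of all genes with at least 10 pooled reads, 24.6% were more than 2-fold higher in NPCs. Of 12 extraembryonic endoderm markers, 11 were more than 2-fold higher in NPCs, and their summed level went from 600 RPM in ESCs to 10925 RPM in NPCs. The endoderm transcription factor gene *Gata6* had 8 and 459 reads, and *Sox17* had 8 and 383. The most-read gene of the list, the basement membrane collagen gene *Col4a1*, had 856 and 20753 reads. Ratios of NPC to ESC for *Hnf4a*, *Sparc*, *Gata4*, *Lama1*, *Dab2*, *Sox7* and *Afp* ran from 5.93 (2.91 to 13.7) for *Hnf4a* to 137 (24.2 to 5444) for *Afp*, which had 1 and 141 reads. The library labelled NPC therefore held high levels of endoderm markers and low levels of the neural markers, and the part of either in the values below was not tested. Fibroblast markers, which the feeder layer could supply, summed to 491 RPM in ESCs and 276 RPM in NPCs, and 1815 of the 2096 ESC reads on that list were of the fibronectin gene *Fn1*. Of 7 fibroblast markers with at least 10 pooled reads, 2 were more than 2-fold lower in NPCs, 1 was higher and 4 were within 2-fold. Of all genes with at least 10 pooled reads, 12.8% were more than 2-fold lower and 24.6% higher. *Thy1* (79 and 12 reads) and *Pdgfrb* (93 and 21) were the markers lower in NPCs and *Col1a2* (51 and 165) was the higher one. Their part was not tested either.

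Over the exons of all 10 members together, 2349 reads were counted in ESCs (550 RPM) and 732 in NPCs (166 RPM). Nearly all of these reads lay on the annotated strand, since the opposite strand of the same exons had 7 reads in ESCs and 0 in NPCs. A gene was called lower or higher in NPCs when its log2 ratio of RPM, with 1 read added in each library, was under -1 or over 1, and calls were made for genes with at least 10 pooled reads. Among the members, 9 reached 10 reads. Of them 5 were more than 2-fold lower in NPCs (*Nodal*, *Tdgf1*, *Lefty1*, *Lefty2* and *Smad7*), against 12.8% of the 14859 genes tested. *Fgf5* was the 1 member more than 2-fold higher, against 24.6% of genes tested. *Otx2*, *Pou3f1* and *Id1* were within 2-fold, and *T* had too few reads for a call. The median log2 ratio of the 9 members was -1.48, while the median of all genes tested was 0.34. Single members ran from -3.15 (*Lefty1*) to 2.21 (*Fgf5*). Relative to the median gene tested, 7 of the 9 members were lower, but the intervals of *Id1* and *Pou3f1* include that median. In the plot of the ratios the ligand, its coreceptor and its inhibitors stand on the lower side, and the primed-state genes lie around equal levels or above.

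**Figure D1:**
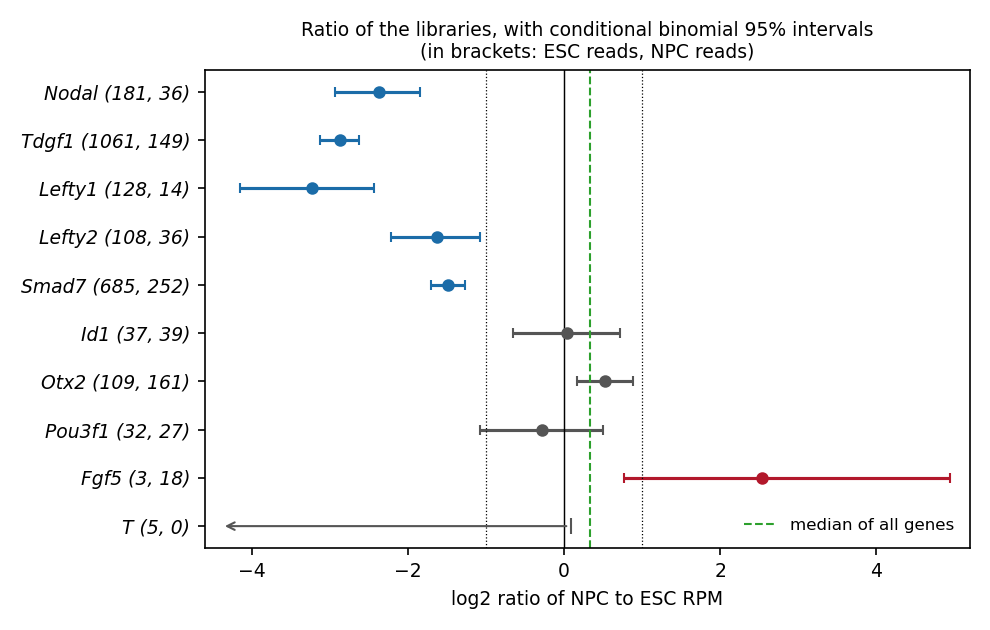
Log2 ratio of NPC to ESC RPM for each of the 10 members, with ESC and NPC reads in brackets after the gene symbol. Points are the ratios without an added read and bars are conditional binomial 95% intervals, blue for members more than 2-fold lower and red for the member more than 2-fold higher; dotted lines mark 2-fold, the dashed line marks the median of all genes (0.34), and the arrow for T starts at the upper bound because NPCs had 0 reads. All 5 blue intervals lie below 2-fold lower, and those of Id1 and Pou3f1 span equal levels.

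*Nodal* (ENSMUSG00000037171.6), the ligand, lies on the plus strand of chr10:60880720-60888086 and has 3 exons with 2095 bases in all. ESCs gave 181 reads of it, or 42.4 RPM, and NPCs gave 36, or 8.18 RPM. The level was 5.18-fold higher in the ESC library (interval 3.61 to 7.63), and the sequence occurs once in mm9 for 177 reads from ESCs and for all 36 from NPCs. Per length, *Nodal* was at 20.2 RPKM in ESCs, above 82.3% of the genes tested, and at 3.91 RPKM in NPCs, above 36.8%. The reads covered all 3 exons, with 94 ESC reads in exon 2, which is wholly coding, and 74 in exon 3. In NPCs the same exons had 14 and 21 reads. Introns were sparsely covered, with 14 reads in ESCs and 10 in NPCs. These were 2.66 and 1.90 reads per kb, against 86.4 and 17.2 reads per kb of exon. The ESC reads began at 93 positions. The placement with the most reads, 16 in ESCs and 1 in NPCs, lies in the coding part of exon 2 on the plus strand of chr10:60885984-60886031, and it is shown because it was read in both libraries and occurs once in the genome:
Nodal: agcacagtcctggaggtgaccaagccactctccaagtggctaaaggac

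*Tdgf1* (ENSMUSG00000032494.8), which encodes the coreceptor Cripto, lies on the minus strand of chr9:110842114-110848662 and has 6 exons. It was the member with the most reads, 1061 in ESCs (interval 998 to 1127) and 149 in NPCs (126 to 175). The level was 7.33-fold higher in the ESC library (6.17 to 8.77). In ESCs it stood at 129 RPKM, above 95.8% of the genes tested, and in NPCs at 17.6 RPKM, above 75.5%. Exon 6, which holds the end of the coding sequence and the 3′ untranslated region, had 806 ESC and 114 NPC reads, and exon 1 had 204 and 25. Coding bases, which make up 26.6% of the exon length, were overlapped by 23.1% of its reads in the ESC library and 18.1% in the NPC library. Several fragments were read many times over: the ESC reads began at 205 positions and the most frequent start had 107 reads. Counting each start position once brought the log2 ratio from -2.87 to -1.77, which is the value of *Tdgf1* that moved most. The assignment of these reads is less secure than that of *Nodal*, because 94 ESC and 12 NPC reads had a sequence found more than once in mm9 and 328 and 35 did not match mm9 exactly.

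The inhibitor genes *Lefty1* (ENSMUSG00000038793.8, chr1:182865153-182868531) and *Lefty2* (ENSMUSG00000066652.5, chr1:182823239-182829234) are neighbours on the plus strand and have 4 exons each. Their coding sequences have the same length, 1104 bases, of which 1014 (91.8%) are identical, and 293 of the 1057 stretches of 48 bases in the one occur in the other. A read from such a stretch cannot be assigned to either gene.

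Over all exons *Lefty1* had 128 reads in ESCs and 14 in NPCs, a level 9.42-fold higher in the ESC library (5.41 to 17.7). This was the largest ratio of ESC to NPC among the members called lower, but its interval overlapped those of *Tdgf1* (6.17 to 8.77) and *Nodal* (3.61 to 7.63). *Lefty2* had 108 and 36 reads and was 3.09-fold higher in the ESC library (2.10 to 4.64). Both intervals lay above 2-fold. Of the reads of both genes, 54.2% (47.7 to 60.7%) belonged to *Lefty1* in ESCs and 28.0% (16.2 to 42.5%) in NPCs. With reads that occur once in mm9 these shares were 53.5% and 29.8%. Over coding bases alone, where both genes have the same length, *Lefty1* had 72 of 102 reads in ESCs, or 70.6% (60.7 to 79.2%), and 9 of 15 in NPCs (32.3 to 83.7%), and these intervals overlap. The intervals of the *Lefty1* share were thus apart over whole exons and overlapped over the coding bases, where NPCs had few reads. Most reads of *Lefty2* fell in exon 4, which holds its long 3′ untranslated region, with 97 of 108 in ESCs and 34 of 36 in NPCs. *Lefty1* had 45 of its ESC reads in exon 1 and 69 in exon 4.

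*Id1* (ENSMUSG00000042745.9), which encodes an inhibitor of helix-loop-helix transcription factors, lies on the plus strand of chr2:152561987-152563146. It had 37 reads in ESCs and 39 in NPCs. The NPC level was 1.02 times that of ESCs (0.636 to 1.65), so differences within this interval were not detectable at this depth. A single placement carried a large share of these reads, 17 of them in each library, which is 45.9% in ESCs and 43.6% in NPCs. It lies in the coding sequence on the plus strand of chr2:152562238-152562285, and it is shown because it held that share of the reads in both libraries:
Id1: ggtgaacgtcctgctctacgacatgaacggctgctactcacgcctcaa

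*Smad7* (ENSMUSG00000025880.5), the intracellular inhibitor, lies on the plus strand of chr18:75527183-75555589 and has 6 exons. It had 685 reads in ESCs (635 to 738) and 252 in NPCs (222 to 285). The level was 2.80-fold higher in the ESC library (2.42 to 3.25), the smallest of the ratios among the 5 members called lower. Per length it was the member after *Tdgf1* in both libraries, at 35.5 RPKM in ESCs and 12.7 RPKM in NPCs. Its reads lay mainly in the long outer exons, with 293 ESC and 89 NPC reads in exon 1 and 365 and 161 in exon 6. The introns of *Smad7*, which are long, held 147 ESC and 63 NPC reads, or 6.15 and 2.64 reads per kb. In ESCs the introns of *Tdgf1* (9.52 reads per kb) and *Lefty1* (8.02) were more densely covered.

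Among the primed-state genes, *Otx2* (ENSMUSG00000021848.9, minus strand of chr14:49277354-49287319), a homeobox transcription factor of the epiblast and forebrain, had 109 reads in ESCs and 161 in NPCs. The NPC level was 1.43 times that of ESCs (1.12 to 1.85), which is above equality and under 2-fold. The log2 ratio of 0.52 was smaller when each start position was counted once (0.13) and over coding bases alone (0.10), so the size of the difference depends on how the reads are counted. As the median gene tested was also higher in NPCs, the log2 ratio of *Otx2* relative to it was 0.18. *Pou3f1* (ENSMUSG00000078236.3, plus strand of chr4:124334896-124337899), a POU-domain transcription factor also called Oct6, had 32 reads in ESCs and 27 in NPCs, a ratio of 0.819 (0.472 to 1.41). *Fgf5* (ENSMUSG00000029337.1, plus strand of chr5:98683203-98706049), a fibroblast growth factor of the primed epiblast, had 3 reads in ESCs and 18 in NPCs. Its NPC level was 5.82 times that of ESCs, with a wide interval from 1.70 to 30.9. The difference lies in the last exon, where NPCs had 16 reads and ESCs 3. A further 10 reads lay in *Fgf5* introns in NPCs and 0 in ESCs. Coding bases of *Fgf5* had 3 reads in NPCs and 0 in ESCs, so over the coding sequence the gene had too few reads for a call. The 3 primed-state genes thus had ratios of NPC to ESC from 0.819 to 5.82, and *Fgf5*, with the largest ratio, had the fewest reads.

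*T* (ENSMUSG00000062327.3, plus strand of chr17:8627288-8635361) had 5 reads in ESCs, 4 of them in exon 2, and 0 in NPCs. A count of 0 was set to a fixed limit of 3 reads, which is 0.682 RPM, while the exact Poisson interval reaches 3.69 reads. The ESC level of 1.17 RPM was 1.72 times the limit of 3 reads when the counting error of the 5 ESC reads is left out. The interval of the ratio nevertheless reached equality, with an upper bound of 1.06 for NPC over ESC. Only 3 of the 5 reads began inside an exon, and 2 overlapped coding bases.

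In ESCs the order of levels per length was *Tdgf1* (129 RPKM), *Smad7* (35.5), *Nodal* (20.2), *Lefty1* (17.0), *Lefty2* (9.68), *Otx2* (7.51), *Id1* (7.47), *Pou3f1* (2.49), *T* (0.506) and *Fgf5* (0.281). The intervals of *Nodal* and *Lefty1* overlapped, as did those of *Lefty2*, *Otx2* and *Id1* and those of *T* and *Fgf5*, while the other neighbours were apart. In NPCs *Tdgf1* (17.6 RPKM) and *Smad7* (12.7) were again first, followed by *Otx2* (10.8), *Id1* (7.64), *Nodal* (3.91), *Lefty2* (3.13), *Pou3f1* (2.04), *Lefty1* (1.81), *Fgf5* (1.64) and *T* with 0 reads. There the intervals of *Smad7* and *Otx2* overlapped, and so did those of *Otx2* and *Id1* and of each neighbouring pair from *Nodal* to *Fgf5*. *Otx2* was below *Nodal* and *Lefty1* in ESCs and above both in NPCs, with intervals apart each time.

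**Figure D2:**
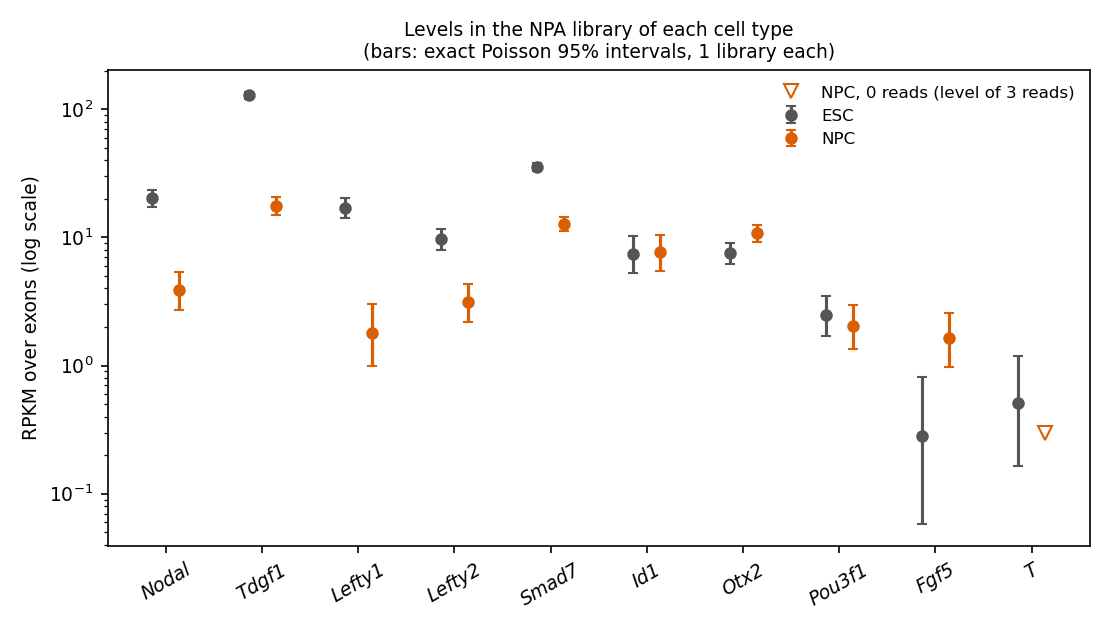
Level of each member in RPKM over its exons (log axis) in the ESC library (grey) and the NPC library (orange). Points are levels, bars are exact Poisson 95% intervals, and the open triangle is the level of 3 reads for T, which had 0 reads in NPCs; Tdgf1 stands highest in both libraries, at 129 and 17.6 RPKM.

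The position of the reads along the exons was compared as well, because the NPA fraction can hold fragments of transcripts. The exons of each gene were joined and split at the midpoint of their length, and the share of reads that began in the 5′ part was taken. Over protein-coding genes with at least 50 pooled reads the median share was 51.1% in ESCs (9843 genes) and 48.3% in NPCs (9866 genes). *Otx2* was far toward the 3′ end in both libraries, with 20.6% (13.4 to 29.5%) in ESCs and 19.9% in NPCs, with an upper bound of 26.9%. Its last exon had 83 of 109 ESC reads and 128 of 161 NPC reads, and its upstream exon 2, which is noncoding, had 0 reads in both. The exons of *Otx2* include several from alternative transcripts. *Lefty2* also lay toward the 3′ end, with 29.9% (21.4 to 39.5%) in ESCs and 16.7% (6.37 to 32.8%) in NPCs. *Id1* lay toward the 5′ end, with 73.0% (55.9 to 86.2%) in ESCs and 76.9% (60.7 to 88.9%) in NPCs, and the placement shown above accounts for much of it. The merged exons of *Id1* form 1 stretch of 1160 bases that covers the whole gene, so intron reads could not be set apart for it. *Nodal* (43.6 and 37.1%) and *Tdgf1* (50.1 and 43.2%) were nearer to the median gene, and their intervals include the median share in both libraries. *Smad7* (46.0 and 36.1%) lay below the median share, and its interval excludes that share in both libraries. *Pou3f1*, which has a single exon, had 22 of 32 ESC reads and 17 of 27 NPC reads in the 5′ part. Its intervals (50.0 to 83.9% in ESCs and 42.4 to 80.6% in NPCs) include the median share. Part of this rests on repeated fragments. With each start position counted once, the ESC shares became 33.8% for *Smad7*, 60.4% for *Tdgf1*, 40.6% for *Lefty2* and 31.9% for *Lefty1*, each outside its interval for all reads. For *Smad7* the interval in ESCs (42.2 to 49.8%) and that in NPCs (30.2 to 42.4%) overlapped slightly. For every member with at least 10 reads in each library the intervals of ESCs and NPCs overlapped, and a difference in position between the libraries was not tested further.

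**Figure D3:**
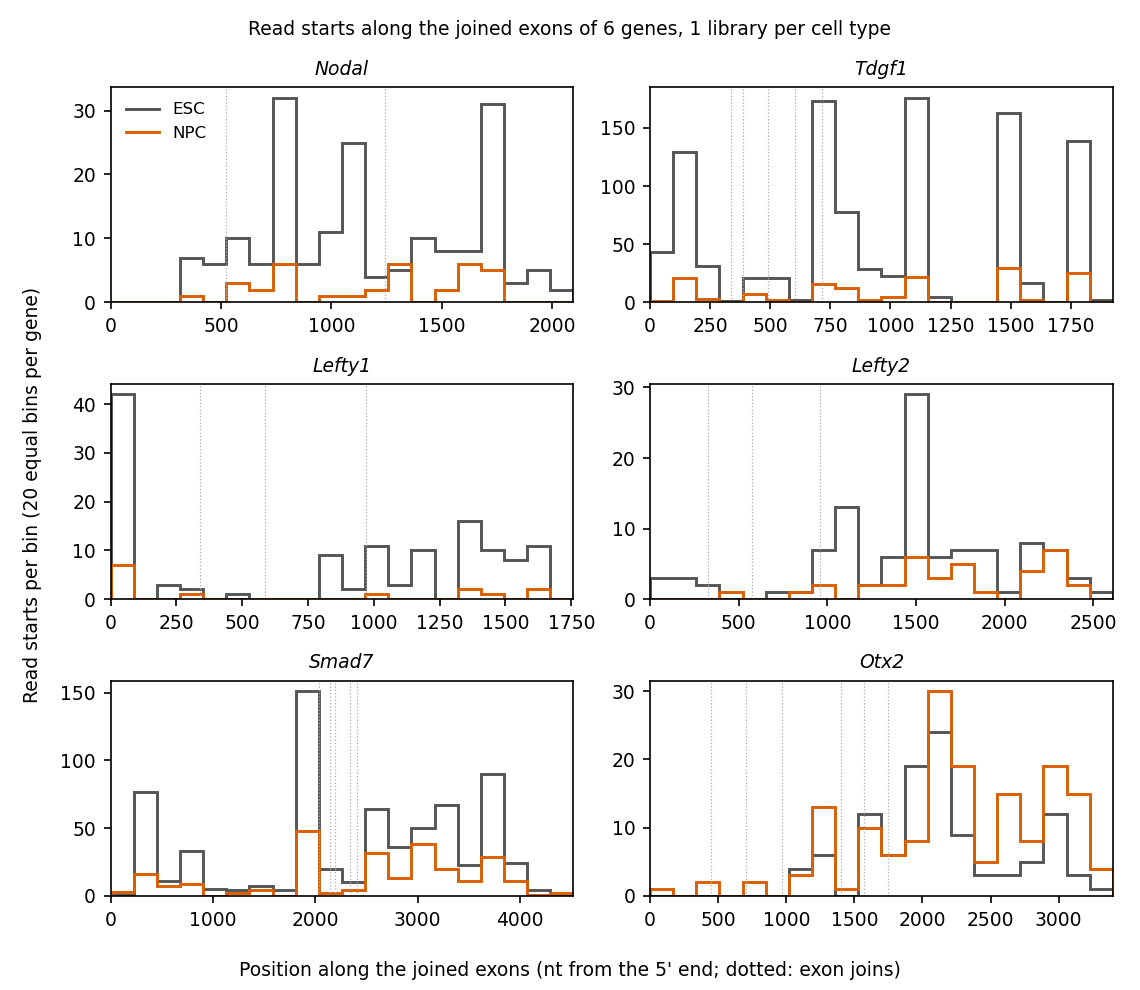
Number of read starts in each of 20 equal bins along the joined exons of 6 members, from the 5′ end in nt, for ESCs (grey) and NPCs (orange), with dotted lines where exons join. Tdgf1 has a few tall bins in ESCs, Lefty1 has its tallest bin at the 5′ end, and reads of Otx2 and Lefty2 lie mostly in the last exon.

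The remaining genes of the Nodal branch were examined to see whether they had the same ratios as the members. Among 26 such genes in 4 lists (ligands and convertases, receptors and coreceptors, extracellular inhibitors, and Smads with their cofactors), 21 had at least 10 reads. Of these, 2 were more than 2-fold lower in NPCs, 6 were higher and 13 were within 2-fold, and their median log2 ratio was 0.08. These counts are near the shares of all genes tested, 12.8% lower and 24.6% higher, and are read as no result about the branch as a whole. Those lower in NPCs were *Inhbb*, which encodes an activin subunit, with 97 and 6 reads, and *Skil*, a repressor of Smad transcription that the pathway is known to induce, with 1358 and 522 reads. *Acvr1b*, the type I receptor gene, had 223 and 148 reads, a ratio of NPC to ESC of 0.644 (0.520 to 0.797), while *Acvr2a*, a type II receptor gene, had 70 and 204 reads and a ratio of 2.83 (2.15 to 3.77). *Furin*, whose product cleaves the Nodal precursor, had 159 and 447 reads. The transducers *Smad2* (254 and 454 reads), *Smad3* (124 and 257) and *Smad4* (125 and 504) had ratios of NPC to ESC of 1.74, 2.01 and 3.91, and *Smurf1*, a ubiquitin ligase that acts on Smads, had 97 and 315 reads. *Fst*, which encodes the activin antagonist follistatin, went from 5 reads in ESCs to 539 in NPCs, a level 105-fold higher in the NPC library (44.6 to 324). The extracellular inhibitors thus had unlike ratios, as both *Lefty* genes were lower in NPCs and *Fst* was higher.

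Genes of the BMP branch had higher ratios. Of 8 BMP ligand, receptor and Smad genes with at least 10 reads, 5 were more than 2-fold higher in NPCs and 1 was lower, with a median log2 ratio of 1.22. Over all genes tested the shares were 24.6% higher and 12.8% lower, and the median was 0.34. *Bmp2* had 2 and 123 reads, *Acvr1* had 15 and 133, and *Bmp7* was the lower one with 135 and 43. The receptor genes *Bmpr1a* (369 and 923 reads) and *Bmpr2* (126 and 426) and the transducer *Smad1* (68 and 157) were 2.43-fold, 3.28-fold and 2.24-fold higher in NPCs. Among BMP response genes and BMP inhibitors other than *Smad7* and *Id1*, 7 of 10 were more than 2-fold higher and 0 were lower, with a median of 1.42. Of those higher, *Msx1* (3 and 10 reads), *Id4* (5 and 16), *Msx2* (8 and 25) and *Grem1* (12 and 35) had few reads. The interval of the *Msx1* ratio (0.833 to 18.3) includes equality. *Smad6* (17 and 10 reads), *Bambi* (50 and 45) and *Chrd* (3 and 7) were within 2-fold. *Id2* (33 and 104 reads) and *Id3* (20 and 53) were 3.06-fold (2.05 to 4.67) and 2.57-fold (1.51 to 4.54) higher in NPCs. The interval of *Id1* (0.636 to 1.65) lay below that of *Id2* and overlapped that of *Id3*. The BMP inhibitor gene *Nog* had 3 and 180 reads.

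Of the other primed epiblast genes, 9 had at least 10 reads. Among them 3 were more than 2-fold higher in NPCs, 1 was lower and 5 were within 2-fold, and the median log2 ratio was -0.15. These counts, too, are near the shares of all genes tested (24.6% higher and 12.8% lower). The DNA methyltransferase gene *Dnmt3b* had 137 and 640 reads, a 4.54-fold higher level in NPCs (3.77 to 5.49), whereas *Dnmt3a* had 466 and 539. *Sall2* had 14 and 234 reads. Of 13 naive pluripotency genes, 9 were more than 2-fold lower in NPCs, 0 were higher and the median was -1.43. *Esrrb* had 1125 and 258 reads and was 4.49-fold higher in the ESC library (3.92 to 5.16), and *Prdm14* had 80 and 8. *Tfcp2l1*, the most-read gene of the list, had 2028 and 528 reads, *Nanog* 1576 and 601, *Zfp42* 707 and 289, *Nr0b1* 180 and 68, and *Tcl1* 172 and 29. *Fgf4* had 841 and 248 reads, and *Klf4*, with 226 and 206, was within 2-fold. Of the 12 primitive streak and mesendoderm genes beside *T*, 8 had under 10 reads. Of the remaining 4, 2 were more than 2-fold lower in NPCs, namely *Mesp2* with 18 and 0 reads and *Wnt3* with 24 and 4. *Eomes*, with 12 and 14 reads, was within 2-fold, and *Foxa2*, which is also expressed in endoderm, was higher with 2 and 113.

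**Figure D4:**
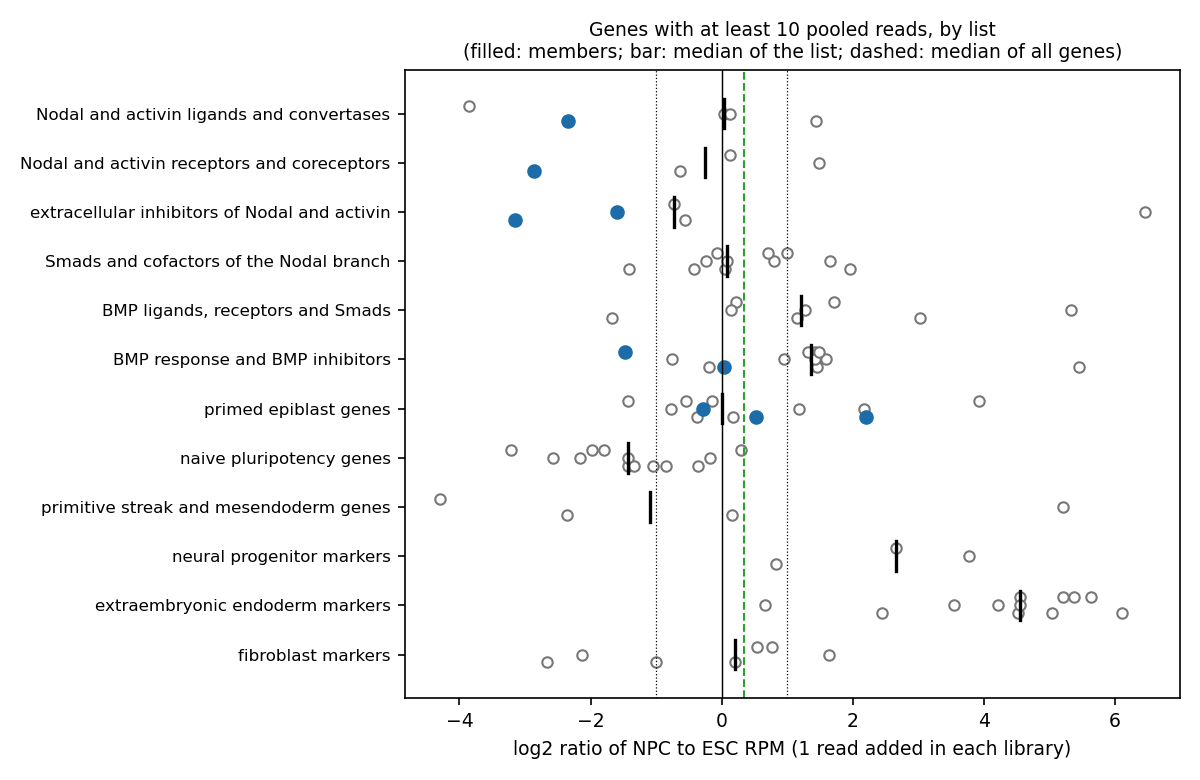
Log2 ratio of NPC to ESC RPM, with 1 read added in each library, for genes with at least 10 pooled reads in each of 12 lists. Filled points are members, open points are other genes, black bars are list medians with members included, dotted lines mark 2-fold and the dashed line is the median of all genes (0.34); the naive pluripotency list has its median at -1.43 and the extraembryonic endoderm list at 4.55.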

How the data were processed

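NPA RNA of R1 ESCs and day 7 NPCs was sequenced on SOLiD, 1 library each. The authors aligned the reads to mm9 with Bowtie, which places no read across an exon junction, did not require a unique placement, and removed mitochondrial, ribosomal and Repeat Masker reads. They deposited the position, strand and 48 nt sequence of every remaining read, so the values used here are read placements, given neither as counts nor as another normalized unit. Reads on mitochondrial DNA numbered 0 in both libraries. The sequence occurred once in mm9 for 78.2% of ESC and 83.2% of NPC reads, looked up as exact matches on both strands.

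Reads were counted over the merged GENCODE M1 exons of all 37310 genes and scaled to RPM by the library total and to RPKM by the exon length. Where a symbol had several entries, the protein-coding entry with the longest exons was used. Ratios were called at 2-fold with 1 read added, over genes with at least 10 pooled reads. The members and the lists were chosen with earlier results of these data known. The text names all members, list genes more than 2-fold apart with at least 50 reads in a library, and the most-read gene of each list. *Pax6*, *Pax3*, *Olig2*, *Acvr1b*, *Smad2*, *Klf4*, *Wnt3*, *Mesp2*, *Eomes*, *Msx1*, *Id4*, *Msx2*, *Grem1*, *Smad6*, *Bambi* and *Chrd* were added after their values were seen. *Sox1* was not matched by symbol. Alternatives changed the scaling, repeated starts, read assignment, repeated sequences, added reads, filters and the split of the exons. Those for coding bases and for reads found at most once in mm9 were chosen after seeing the data. Counting was tested on simulated data. Python 3.11.15, NumPy 2.4.6, SciPy 1.17.1, pandas 2.3.3, numba 0.67.0, pysam 0.24.0 and matplotlib 3.10.9 were used.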

Additional observations from a re-analysis of the deposited data

How the results depend on the processing

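No paired analysis was possible because each cell type had 1 library, and no replicate could be left out for the same reason. The count of 5 members more than 2-fold lower in NPCs was also 5 under every alternative except the one that kept genes with at least 1 read, which gave 6 by adding *T*. The median log2 ratio ranged from -1.87 (coding bases only) to -1.20 (each start position counted once). The count of members more than 2-fold higher was 1 in the other alternatives, and 0 with genes of at least 50 pooled reads and 0 over coding bases only, since *Fgf5*, with 21 pooled reads, then fell under the minimum. Of 80 values of single members under the alternatives, 73 lay within the counting interval of the reported value, 7 lay outside it and 0 changed sign while called. The values of *Tdgf1* ranged from -3.21 with scaling by the median of ratios to -1.77 with each start position counted once, and those of *Smad7* from -1.82 to -1.20 under the same alternatives. *Otx2* was at 0.13 with each start position counted once and 0.10 over coding bases. Scaling by the median of ratios over genes lowered every log2 ratio by 0.34. Splits of the exons nearer to the 5′ end changed the shares by construction, and counting each start position once moved the ESC shares of *Lefty1*, *Lefty2*, *Tdgf1* and *Smad7* and the NPC share of *Tdgf1* (to 52.1%) outside their intervals. Depth limits *T*, *Fgf5*, *Pou3f1* and *Id1* most, as each had under 80 pooled reads.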

Other observations

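Many *Tdgf1* reads that did not match mm9 exactly differed from it at a few shared positions. At chr9:110842908, in the 3′ untranslated region, 103 of 105 ESC reads and 12 of 12 NPC reads covering the base did not carry the base of mm9. At chr9:110843288, in the coding sequence, this was so for 55 of 55 ESC and 4 of 4 NPC reads, and at chr9:110842477 for 31 of 31 and 8 of 8. At chr9:110848457, in exon 1, 17 of 29 ESC and 2 of 4 NPC reads differed. *Smad7* had 1 such position, at chr18:75554351, with 11 of 11 ESC and 5 of 5 NPC reads. The reads that differ were counted with the rest, and the source of the differences was not tested.

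Repeated starts took unequal shares of the members' reads. The most frequent start position held 45.9% of the ESC reads of *Id1* and 15.6% of those of *Lefty1*, but 4.82% of those of *Smad7* and 5.50% of those of *Otx2*. In NPCs the shares were 43.6%, 35.7%, 3.57% and 3.73%.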
